A study of Mus musculus with 6 samples.

Results

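The genes described here encode the constitutive proteasome, and were taken by name from the deposited TPM table. A row was a member where its symbol began with Psma, Psmb, Psmc or Psmd and a number, leaving out the immunoproteasome genes Psmb8, Psmb9 and Psmb10. This gave 37 of 25124 genes. The 14 genes Psma1 to Psma7 and Psmb1 to Psmb7 form the core particle. Psmc1 to Psmc6 and 11 of the Psmd genes, 17 in all, are subunits of the regulatory particle. The rule misses subunits of that particle with other names, such as Sem1 and Adrm1, and the counts for the particle, its base and its lid leave them out. The other 6 carry a matching name without being stable subunits of the constitutive complex. They are the assembly chaperone genes Psmd5, Psmd9 and Psmd10, the tissue-restricted genes Psma8 and Psmb11, and Psmc3ip, whose product acts in meiotic recombination.

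The samples were RAW264.7 cells, a mouse macrophage-like line, in a control version that had received a Cas9 plasmid lacking a guide sequence. This version was made for comparison with E4BP4 knockout cells, and both groups here carry it. Cells were kept below 15 passages in medium with 25 mM glucose and 10% serum, and were either left without cytokine (M0, 3 libraries) or given 10 ng/ml IL-4 to polarize them toward the alternatively activated M2 state (M2, 3 libraries). The labels do not say whether replicates were separate cultures, so a p-value measures the spread between libraries only, which may be technical. The titles of the M0 libraries alone are marked as re-analysed, so a batch behind that mark cannot be told apart from IL-4. RNA sequencing of poly(A) RNA gave 15615639 to 19511192 reads per library, as recovered from the TPM values. TPM is a level per base of transcript, scaled for depth. The listed genes summed to 550163.2 to 559556.5 TPM per library, highest in M2 replicate 3. Values per library are given in the order of replicates 1, 2 and 3. All 9 macrophage markers were above the filter on low values, and they moved both ways. Adgre1, Mertk and Fcgr1 rose (2.23-fold, 2.05-fold and 1.19-fold), Itgam and Ptprc fell (to 0.79 and 0.77 times the M0 mean), and Csf1r, Cd68, Spi1 and Lyz2 were not called in the fit of all 6 libraries. Of 16 markers of 5 other cell types, 0 reached that filter and the T cell markers Cd3g and Cd2 were at 0 in every library. The 16 together held 1.49 to 1.85 TPM per M0 library and 1.20 to 1.55 TPM per M2 library. Arg1, the arginase gene used as a check of the IL-4 response, stood at 0.130, 0.135 and 0.257 TPM in the M0 libraries and 16.0, 14.9 and 14.9 TPM in the M2 libraries. M2 replicate 3 stood apart by gene length. Among tested genes, the median deviation from the mean over libraries on log2(TPM + 1) was 0.072 in the shortest quartile and -0.23 in the longest quartile of transcripts. The other 5 libraries lay between -0.034 and 0.022 and between -0.021 and 0.11. Core particle transcripts are short, with a median model length of 974 bases, against 1548 bases for the regulatory particle and 2644.5 bases for all tested genes.

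The proteasome is the main protease of the cytosol and nucleus and breaks down proteins tagged with ubiquitin. Its core particle is a barrel of stacked rings, with alpha rings that gate the entrance and beta rings that hold the catalytic threonines. A regulatory particle caps the barrel. The ATPase ring of its base unfolds the substrate and feeds it into the core, and the lid removes the ubiquitin chain. In cells exposed to interferon the catalytic subunits can be replaced by immunoproteasome subunits, which change the peptides made for antigen presentation. Transcription of the subunit genes is known to be raised by NRF1, the product of Nfe2l1, when proteasome activity falls short. In macrophages the proteasome also degrades the inhibitors of NF-kappaB.

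Fold changes of proteasome subunit transcripts between M0 and M2 were small and of both signs. Of the 31 genes of the core and regulatory particles, 11 rose, 1 fell and 19 did not pass at an adjusted p under 0.05 (limma on log2(TPM + 1), two-sided, Benjamini-Hochberg over 11202 tested genes). In the same fit 20.1% of all tested genes rose and 23.7% fell (43.7% in either direction). The log2 fold change was positive for 22 of the 31, and for 5175 of the 11202 tested genes. In RNA from bulk cultures, more RNA per cell and more cells that responded cannot be told apart. The 11 that rose were the alpha ring genes Psma2, Psma3, Psma4 and Psma5, the beta ring genes Psmb3 and Psmb7, the ATPase gene Psmc6 and the lid genes Psmd6, Psmd7, Psmd12 and Psmd13. The 1 that fell was the lid gene Psmd8. Ratios of mean TPM in M2 over M0 ran from 0.86 for Psmd8 to 1.24 for Psmd7, so no subunit changed by more than that. All 31 were above the filter of 1 TPM in every library, the lowest single value being 61.1 TPM.

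In the core particle 6 of 14 genes rose and 0 fell, with a median log2 fold change of 0.15. At an unadjusted p under 0.05, 7 core genes were higher and 2 lower in M2, and 0 were called lower by limma-voom on recovered reads or in the authors' deposited table. In the regulatory particle 5 of 17 rose and 1 fell, with a median of 0.049. The median over all tested genes was -0.03. By position of the libraries, 7 core genes had every M2 library above every M0 library and 2 had every M2 library below, and for the regulatory particle these counts were 5 and 3. Over all tested genes 25.1% lay above and 30.8% below in this way. Limma-voom on recovered reads called 5 core and 5 regulatory genes higher and 0 lower, where 23.9% of all genes were higher and 24.0% lower. The difference between the particles was not tested, since a list is described here by its counts and median alone. In the authors' deposited table, which comes from their own model, 7 core and 5 regulatory genes were higher in M2 at an adjusted p under 0.05 and 0 were lower, where 22.8% and 21.1% of the genes tested here were. All 11 genes that rose in the limma fit were among those 12, and the other was Psma6.

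**Figure D1:**
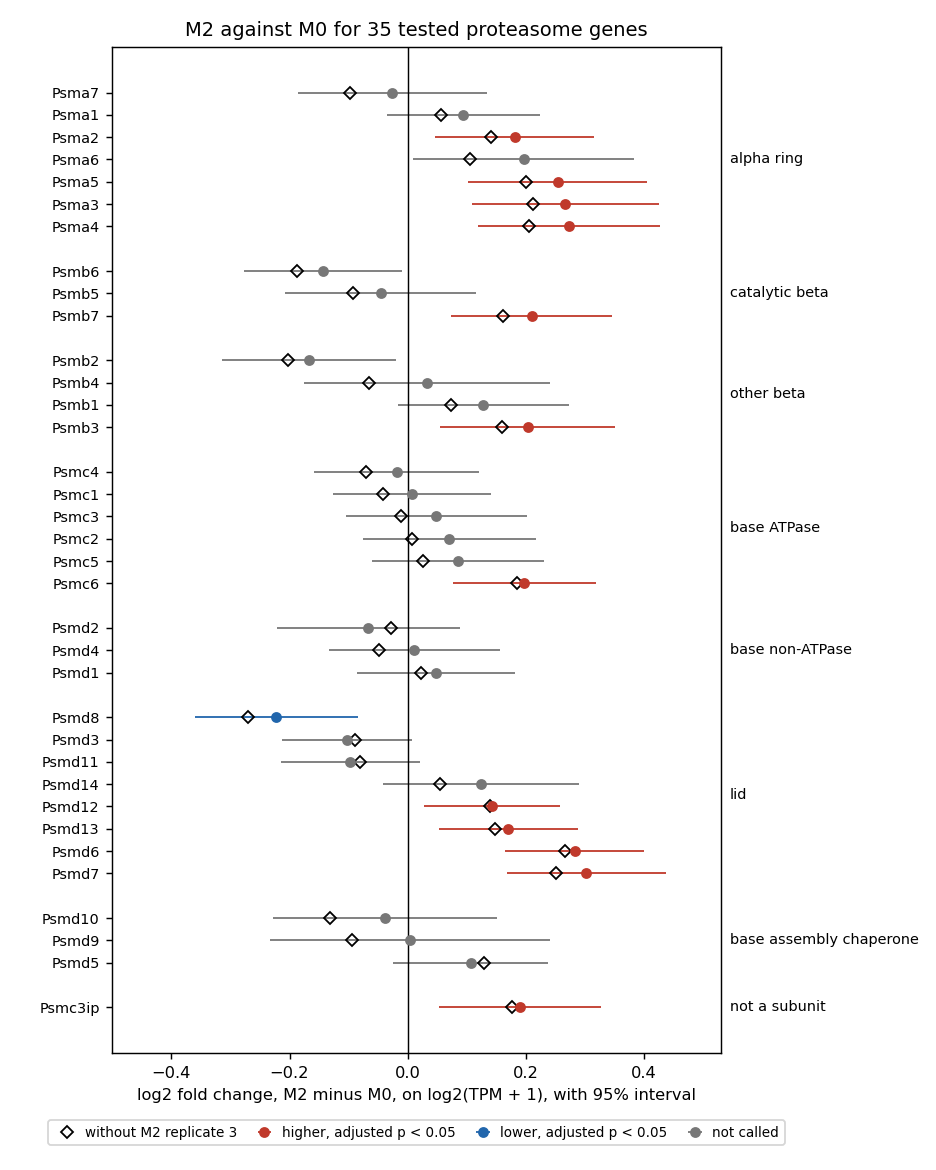
Log2 fold change of M2 minus M0 on log2(TPM + 1) for 35 tested genes, grouped by role, with points for the estimate from 6 libraries, bars for its 95% interval and diamonds for the estimate without M2 replicate 3. Genes that rose and genes that did not stand side by side within the alpha ring, the beta ring and the lid, and Psmd8 (-0.22) and Psmd7 (0.30) of the lid mark the ends of the range.

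The libraries within M2 did not hold the same level. The median deviation of the 14 core genes from their M0 mean on log2(TPM + 1) was 0.02, -0.032 and 0.013 in M0 replicates 1, 2 and 3 and 0.036, 0.13 and 0.25 in M2 replicates 1, 2 and 3. For the 17 regulatory genes it was -0.0048, 0.0083 and 0.017 in M0 and -0.029, 0.019 and 0.15 in M2. M2 replicate 3, which stood apart by gene length, was the highest library for both particles, and M2 replicate 1 lay close to the M0 libraries. Without M2 replicate 3 the core median was 0.09, with 4 genes up and 2 down, and the regulatory median was 0.0066, with 5 up and 1 down. Background shares in that fit were 25.6% higher and 25.2% lower. With the trend on transcript length removed from each library, 8 core genes rose and 2 fell (median 0.15), and 5 regulatory genes rose and 2 fell (median 0.065), against 28.6% and 27.0% of all genes. With both steps, an alternative chosen after seeing the data, 11 of the 31 rose and 3 fell, against 28.2% and 26.9%. The core median minus the regulatory median was 0.025, -0.04 and -0.0044 in the M0 libraries and 0.065, 0.11 and 0.10 in the M2 libraries. These differences did not overlap between the groups. Summed TPM gave a less clear picture for the 17 regulatory genes of the naming rule. Core over regulatory ratios were 1.45, 1.40 and 1.44 in M0 and 1.46, 1.44 and 1.52 in M2, which overlapped. The regulatory sum leaves out Sem1 and Adrm1. Sem1 alone averaged 634.5 (M0) and 580.4 TPM (M2), beside mean sums of 2437 and 2501 TPM for the 17 genes. The overlap may thus depend on the naming rule, and ratios with both genes added were not tested. The core genes together held 0.629% ± 0.0089 of the listed TPM in M0 and 0.664% ± 0.0447 in M2, and the regulatory genes 0.440% ± 0.00339 and 0.451% ± 0.0187 (SD, n = 3 each). The smallest read count behind any of these values was 911, for Psmb5.

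**Figure D2:**
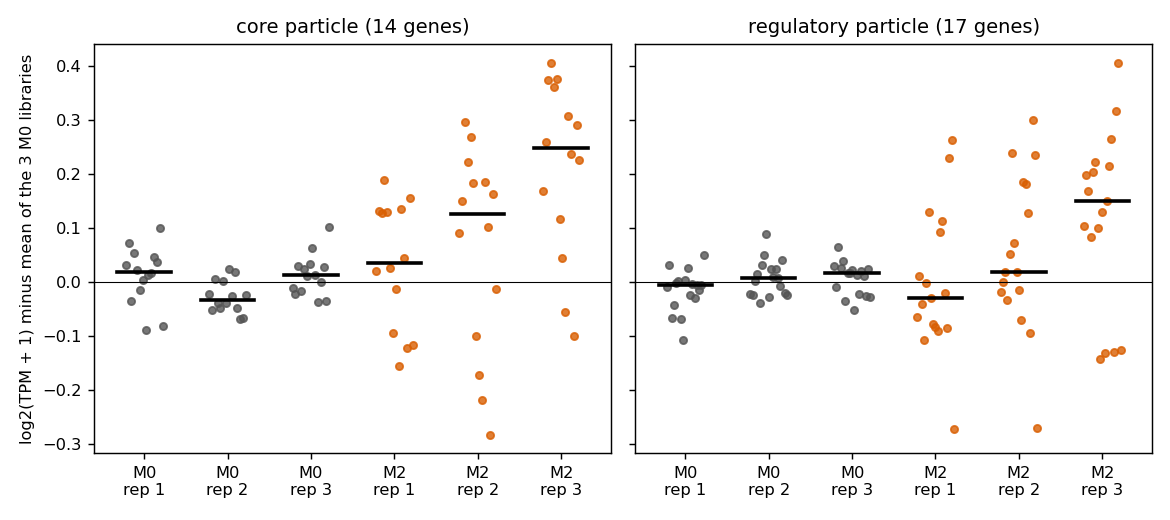
Each point is 1 gene in 1 library, as log2(TPM + 1) minus that gene's mean over the 3 M0 libraries, with bars at the median of 14 core genes (left) and 17 regulatory genes (right). The M0 points are centred by construction, the M2 points spread to both sides of 0, and M2 replicate 3 has the highest median in both panels (0.25 and 0.15).

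Most alpha ring genes were higher in M2. These subunits form the outer rings whose tails close the gate of the barrel. Of 7, 4 rose and 0 fell, where 20.1% and 23.7% of all tested genes did. Of these 7, 0 were lower at an unadjusted p under 0.05, by limma-voom or in the authors' table. A positive log2 fold change was seen for 6. Psma4 had the highest, and read 201, 188 and 191 TPM in the M0 libraries against 221, 226 and 257 TPM in M2. Every M2 library lay above every M0 library, with a log2 fold change of 0.27 (SE 0.068, adjusted p = 0.0111 by limma), and Psma4 passed under each of 17 alternatives (adjusted p 0.00134 to 0.0492). On mm10 its model is at chromosome 9, 54950859 to 54958030, plus strand. Psma3 measured 61.1, 62.9 and 63.9 TPM in the M0 libraries against 68.5, 77.2 and 81.5 TPM in M2, again without overlap. Psma5 went from 113 to 135 TPM (1.20-fold) and Psma2 from 191 to 217 TPM (1.13-fold). Psma3, Psma5 and Psma2 passed under 16, 16 and 9 of 17 alternatives. Psma3 lost its call without M0 replicate 1 and Psma5 without M0 replicate 2. Psma2 lost its call without M0 replicate 2, M0 replicate 3, M2 replicate 2 or M2 replicate 3. It also did not pass with no filter, median-ratio scaling, limma-voom or without the variance trend (adjusted p 0.00454 to 0.143 over the alternatives). For Psma6 the values were 219.5, 222 and 224 TPM in the M0 libraries against 226, 252 and 288 TPM in M2. Its groups did not overlap, but the M2 spread was wide and it did not pass (adjusted p = 0.0848). Psma6 passed as higher in 3 of 17 alternatives (adjusted p 0.0150 to 0.179). These were removal of the length trend, also with the replicate block, and leaving out M2 replicate 1. The interval of the Psma1 difference was -0.035 to 0.22 on the log2 scale. Psma7, the lowest by fold change and the highest by level, read 532, 517 and 543 TPM in the M0 libraries against 497, 495 and 575 TPM in M2. Its groups overlapped, with a log2 fold change of -0.026 (95% interval -0.19 to 0.13).

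Beta ring genes had fold changes of both signs. Of 7, Psmb3 and Psmb7 rose and 0 passed as lower (2 at an unadjusted p under 0.05, and 0 by limma-voom or in the authors' table). Psmb2 and Psmb6 had every M2 library below every M0 library. Over all tested genes 20.1% rose, 23.7% fell and 30.8% had every M2 library below every M0 library. Psmb7 encodes the beta2 subunit with trypsin-like activity. It read 290.5, 291 and 279.6 TPM in the M0 libraries against 315, 326 and 355 TPM in M2, with a log2 fold change of 0.21 (SE 0.06, adjusted p = 0.0206 by limma). The M2 libraries were all higher. Psmb6, the beta1 subunit with caspase-like activity, read 421, 410.0 and 421 TPM in the M0 libraries against 375, 359 and 402 TPM in M2. All 3 M2 libraries were lower, but the difference of -0.14 did not pass (adjusted p = 0.0781). Psmb5 encodes the beta5 subunit, whose chymotrypsin-like activity is the main target of proteasome inhibitor drugs. It read 74.1, 80.2 and 82.4 TPM in the M0 libraries against 78.1, 69.9 and 81.4 TPM in M2, and the groups overlapped (95% interval of the log2 fold change -0.21 to 0.12). The catalytic subunits thus had Psmb7 up, Psmb6 with lower values that did not pass and Psmb5 with overlapping groups. Without M2 replicate 3, Psmb6 passed as lower (-0.19, adjusted p = 0.0122, in a range of 0.00827 to 0.331 over 17 alternatives). Psmb7 stayed higher there (0.16, adjusted p = 0.0222) and lost its call without M0 replicate 2 or M0 replicate 3 (adjusted p 0.00358 to 0.0900). On mm10 the Psmb7 model is at chromosome 2, 38588046 to 38643906, minus strand, that of Psmb6 at chromosome 11, 70525357 to 70527858, plus strand and that of Psmb5 at chromosome 14, 54614120 to 54617995, minus strand.

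Among the beta subunits without catalytic activity, Psmb3 had the highest fold change and Psmb2 the lowest. Psmb3 read 162, 144 and 148 TPM in the M0 libraries against 168, 169 and 185 TPM in M2 and rose 1.152-fold (adjusted p = 0.0324 by limma). Psmb3 kept its sign in each alternative and passed in 12 of 17 (adjusted p 0.00375 to 0.130). It lost its call without M0 replicate 2, M0 replicate 3 or M2 replicate 3, with no filter and without the variance trend. For Psmb2 the values were 157, 146 and 156 TPM in the M0 libraries against 140.1, 125 and 142 TPM in M2. The M2 libraries were all below the M0 libraries, at a log2 fold change of -0.17 (adjusted p = 0.0641), and without M2 replicate 3 this passed (-0.20, adjusted p = 0.0257, in a range of 0.0105 to 0.236). Psmb1 and Psmb4 overlapped between the groups, with means of 312 ± 10.1 TPM (M0) against 342 ± 23.8 TPM (M2) for Psmb1 and 449.9 ± 29.7 TPM (M0) against 462 ± 57.8 TPM (M2) for Psmb4 (SD, n = 3 each). The estimate for Psmb4 without M2 replicate 3 went from 0.033 to -0.065 on the log2 scale. Psmb1 passed as higher in 2 of 17 alternatives (adjusted p 0.0325 to 0.346). These were removal of the length trend from all libraries, without and with the replicate block.

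The immunoproteasome genes that the naming rule leaves out differed from one another in the same comparison. Psmb9, the interferon-induced counterpart of Psmb6, read 73.5, 65.9 and 67.3 TPM in the M0 libraries against 57.4, 54.3 and 61.9 TPM in M2 and fell (log2 fold change -0.25, adjusted p = 0.0174 by limma). Psmb10, the counterpart of Psmb7, read 54.3, 51.0 and 52.0 TPM in the M0 libraries against 60.6, 57.4 and 72.3 TPM in M2 and rose (0.26, adjusted p = 0.0323). Psmb9 and Psmb10 each passed under 12 of 17 alternatives. Psmb9 lost its call without M0 replicate 1 or M2 replicate 2 (adjusted p 0.00120 to 0.0853 over the alternatives). It also did not pass with median-ratio scaling, limma-voom or the authors' values. Psmb10 lost its call without any 1 of the M0 libraries, with no filter and without the variance trend (0.00849 to 0.1002). Psmb8, the counterpart of Psmb5, read 156, 161 and 169.6 TPM in the M0 libraries against 128, 135 and 172 TPM in M2. The groups overlapped through M2 replicate 3, and it missed the threshold (adjusted p = 0.208). Without M2 replicate 3 it passed as lower (-0.30, adjusted p = 0.00229, in a range of 0.00229 to 0.529). At the beta2 position both genes had higher values in M2 and at the beta1 position both had lower values, of which those of Psmb6 did not pass. Psmb9 made up 14.2% ± 0.606 of the Psmb6 and Psmb9 TPM in M0 and 13.3% ± 0.0950 in M2 (SD, n = 3 each). Psmb10 made up 15.5% ± 0.462 and 16.0% ± 0.977 of its pair with Psmb7. At the beta5 position the order was the other way round, with Psmb8 at 67.3% ± 0.490 and 65.3% ± 2.98 of the summed TPM of Psmb5 and Psmb8. The level of Psmb5 is uncertain, since its model holds a microRNA gene on the same strand. These shares compare transcript levels per length within a library and were not tested between groups.

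**Figure D3:**
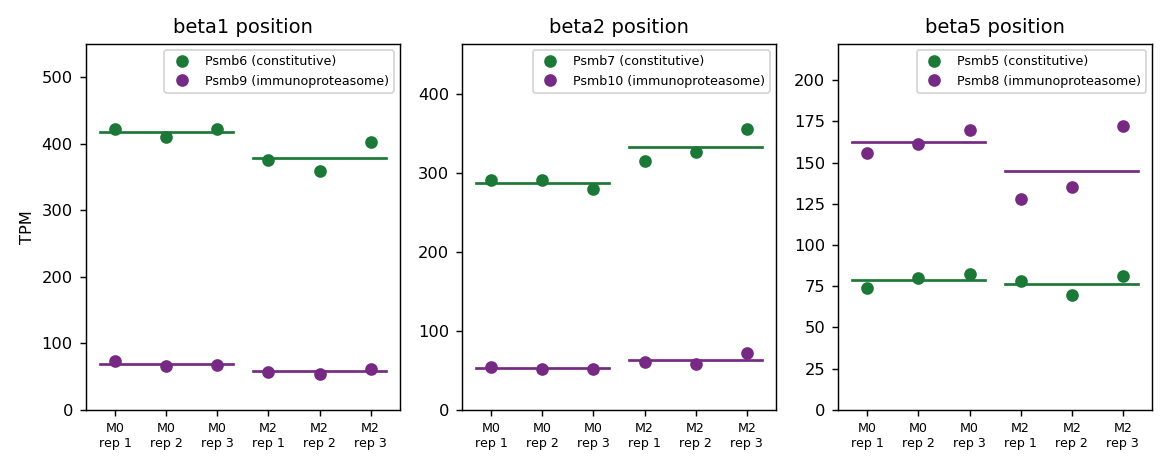
TPM in each library for the constitutive catalytic genes (green) and their immunoproteasome counterparts (purple) at the 3 catalytic positions, with lines at the mean of 3 libraries. The M2 libraries of both genes lie below the M0 libraries at beta1 (where Psmb6 did not pass) and above them at beta2, and at beta5 the immunoproteasome gene Psmb8 is above Psmb5 in all 6 libraries.

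In the base of the regulatory particle 1 of 9 genes rose and 0 fell, where 20.1% and 23.7% of all tested genes did. Of these 9, 0 were lower at an unadjusted p under 0.05, by limma-voom or in the authors' table. For 8 the groups overlapped. The exception was Psmc6, 1 of the 6 ATPases that form the unfolding ring. It read 137, 139 and 133 TPM in the M0 libraries against 149, 161 and 159 TPM in M2, with every M2 library higher and a log2 fold change of 0.20 (SE 0.054, adjusted p = 0.0160 by limma). Psmc6 passed under 16 of 17 alternatives, all but the one without M0 replicate 3 (range of adjusted p 0.00507 to 0.0779). At the low end, Psmc4 read 109.5, 114 and 115 TPM in the M0 libraries against 105, 110.3 and 119.7 TPM in M2, with a 95% interval of -0.16 to 0.12. Psmc1, Psmc2, Psmc3 and Psmc5 lay between, with log2 fold changes of 0.0075, 0.07, 0.049 and 0.085. Their M2 replicate 3 was the highest of the 6 libraries in each case, and without it the values were -0.041, 0.0066, -0.011 and 0.025. Among the base subunits that are not ATPases, Psmd2 had the lowest and Psmd1 the highest fold change. These are the large scaffold subunits that dock ubiquitin receptors. Psmd2 read 109, 125 and 119 TPM in the M0 libraries against 111, 119 and 106 TPM in M2. Psmd1 read 116, 126 and 123 TPM in the M0 libraries against 119, 128 and 131 TPM in M2. The groups overlapped for both. The ubiquitin receptor gene Psmd4 stood at 184 ± 3.28 TPM (M0) against 186 ± 14.3 TPM (M2) (SD, n = 3 each; 95% interval of the log2 fold change -0.13 to 0.16). The estimate for Psmd4 without M2 replicate 3 went from 0.011 to -0.048.

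The lid held both the highest and the lowest fold change among the 31 genes. Of 8 genes 4 rose, 1 fell and 3 did not pass, and only for Psmd14 did the groups overlap. Among all tested genes 20.1% rose and 23.7% fell. Every M2 library lay above every M0 library for 25.1% of them and below for 30.8%. Psmd7 encodes the partner of the deubiquitinase subunit. It read 121, 119 and 123 TPM in the M0 libraries against 146, 143 and 161 TPM in M2, with a log2 fold change of 0.30 (SE 0.059, adjusted p = 0.00351 by limma). Psmd6, a scaffold subunit of the lid, read 124, 129 and 123 TPM in the M0 libraries against 147, 154 and 156 TPM in M2 (0.28, SE 0.052, adjusted p = 0.00253). Psmd6, Psmd7 and Psma4 were the 3 members that passed under every one of the 17 alternatives. For both lid genes the lowest M2 library was above the highest M0 library. Psmd13 and Psmd12, scaffold subunits too, rose 1.13-fold and 1.11-fold without overlap, and passed in 12 and 9 of 17 alternatives. Psmd13 lost its call without any 1 of the M0 libraries, without M2 replicate 2 or without the variance trend (adjusted p 0.00726 to 0.105). Psmd12 lost its call without any 1 of the M0 libraries, M2 replicate 1 or M2 replicate 2 (0.0137 to 0.128). It also did not pass with no filter, with the replicate block alone or without the variance trend. Psmd8, which joins the lid last during its assembly, read 432, 410.4 and 409 TPM in the M0 libraries against 345, 346 and 382 TPM in M2. All M2 libraries were lower, at 0.86 times the M0 mean (log2 fold change -0.22, SE 0.061, adjusted p = 0.0167). Its sign held in all alternatives, but it passed in 10 of 17 (adjusted p 0.00106 to 0.112), and it did not pass with median-ratio scaling, limma-voom or the authors' values, nor without any 1 of the 3 M0 libraries or M2 replicate 1. Psmd3 and Psmd11 had lower values in M2 without overlap, at 0.93 and 0.93 times the M0 means, and did not pass (adjusted p = 0.117 and 0.161). Psmd3 passed as lower in 1 of 17 alternatives, with the length trend removed (adjusted p = 0.0474). Psmd14, the deubiquitinase that cuts the chain from the substrate, read 121, 124 and 125 TPM in the M0 libraries against 122, 135 and 149 TPM in M2, with 1 M2 library among the M0 libraries, and missed the threshold (adjusted p = 0.197). It passed as higher in 1 of 17 alternatives, without M2 replicate 1 (adjusted p = 0.0450). On mm10 the Psmd7 model is at chromosome 8, 107580380 to 107588482, minus strand, that of Psmd6 at chromosome 14, 14112185 to 14120945, minus strand and that of Psmd8 at chromosome 7, 29174187 to 29180673, minus strand.

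The 6 other rows of the naming rule held 3 chaperones, 1 gene that rose and 2 genes near 0. The chaperones Psmd5, Psmd9 and Psmd10 help to build the base and leave the finished complex. Of the 3, 0 were called in either direction (0 at an unadjusted p under 0.05, and 0 by limma-voom), against 43.7% of tested genes. Psmd5, with the highest fold change, read 57.4, 55.6 and 54.5 TPM in the M0 libraries against 58.8, 63.6 and 58.3 TPM in M2. Psmd10, with the lowest, read 32.7, 33.6 and 33.9 TPM in the M0 libraries against 30.8, 29.97 and 37.1 TPM in M2. Every M2 library was above every M0 library for Psmd5, while Psmd10 overlapped, with M2 replicate 3 the highest and the other M2 libraries the lowest. Psmd10 passed as lower in 1 of 17 alternatives, with the length trend removed and without M2 replicate 3 (adjusted p = 0.0394). Psmd9 stood at 12.2 ± 1.06 TPM (M0) against 12.3 ± 1.62 TPM (M2) (SD, n = 3 each). Psmc3ip rose from 39.3 to 45.0 TPM (adjusted p = 0.0315 by limma). It lost its call without any 1 of the M0 libraries, without M2 replicate 1 or without the variance trend (adjusted p 0.00797 to 0.124). Psma8, an alpha subunit of the testis, was at 0 reads in all 6 libraries, where a count of 0 allows up to 3 per library. Psmb11, the beta subunit of the thymus, had 1, 0, 0 reads in the M0 libraries and 2, 0, 2 in the M2 libraries. Both were below the filter and were not tested.

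Although the subunits are present in equal copy number in the assembled complex, their transcripts spanned a wide range of TPM. In M0 the core particle ran from 62.6 TPM for Psma3 to 531 TPM for Psma7. The 17 regulatory genes ran from 91.9 TPM for Psmd3 to 417 TPM for Psmd8. Subunits missed by the naming rule lay outside that range, with M0 means of 57.2 TPM for Adrm1 and 634.5 TPM for Sem1. Both ends of the core range depend on the transcript model. For Psma3 the TPM table uses a model of 2361 bases where the authors' comparison table has 1399, and for Psma7 943 against 1578 bases. The ratios of these lengths are about 1.69 for Psma3 and 0.598 for Psma7. Levels would shift by these factors only if the number of reads stayed the same, which was not tested. Within the catalytic genes, Psmb5 had the lowest TPM and Psmb6 the highest, and the M0 groups of Psmb5, Psmb7 and Psmb6 did not overlap. The 6 ATPase genes were close to one another, with M0 means from 102 to 155 TPM. Neighbours in this order, such as Psmc3 (139 ± 6.34 TPM) and Psmc5 (139.9 ± 3.79 TPM), differed by less than the spread between replicates. The order of levels was largely shared by the groups. Spearman's rho between M0 and M2 means was 0.991 across the 14 core genes and 0.895 across the 17 regulatory genes, as a description over genes that share libraries and transcript models.

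**Figure D4:**
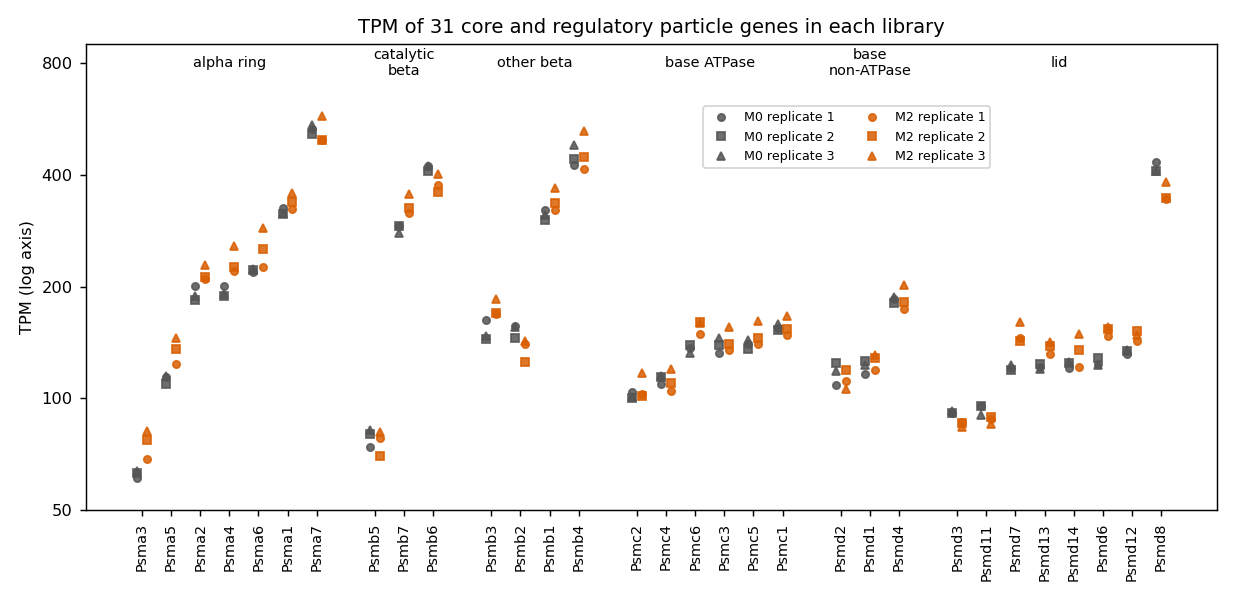
TPM on a log axis for 31 genes in each of 6 libraries (grey M0, orange M2, 1 symbol per replicate number), ordered by M0 mean within each role. The differences between genes, from Psma3 to Psma7, are far larger than those between M0 and M2 for any gene, and M2 replicate 3 (orange triangles) is often the highest library.

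Of 5 assembly chaperones of the core particle 4 rose and 0 fell (0 lower at an unadjusted p under 0.05, and 0 by limma-voom). Their median log2 fold change was 0.45. In the same fit 20.1% of all tested genes rose and 23.7% fell, with a median of -0.03. Pomp, the factor that joins unfinished barrels and is then the first substrate of the new proteasome, read 176, 177 and 183 TPM in the M0 libraries against 264.74, 243 and 283 TPM in M2. All M2 libraries were higher, at 1.47 times the M0 mean (log2 fold change 0.55, SE 0.065, adjusted p = 2.41e-04 by limma). Psmg1 and Psmg2 encode a dimer that guides alpha ring assembly. Psmg2 read 38.8, 31.5 and 33.0 TPM in the M0 libraries against 51.1, 51.6 and 53.5 TPM in M2. Psmg1 read 40.02, 38.6 and 41.4 TPM in the M0 libraries against 55.1, 51.8 and 57.7 TPM in M2. All M2 libraries were higher for both. Psmg3 rose 1.38-fold, and its dimer partner Psmg4 stood at 41.5 ± 1.68 TPM (M0) against 43.1 ± 7.06 TPM (M2) (SD, n = 3 each; adjusted p = 0.775). Pomp, Psmg1, Psmg2 and Psmg3 passed under each of 17 alternatives, and each had a larger fold change than any of the 31 subunits, a difference that was not tested. Without M2 replicate 3 their log2 fold changes were 0.50, 0.41, 0.57 and 0.33. Among the activators and the inhibitor that cap the core, Psme3, which encodes the nuclear activator PA28 gamma, rose from 84.8 to 104 TPM (adjusted p = 0.00434). Psme1 and Psme2, the interferon-induced activator subunits, overlapped between the groups (log2 fold changes -0.075 and -0.056). With M2 replicate 3 left out both passed as lower (-0.17 and -0.15, adjusted p = 0.0437 and 0.0238, in ranges of 0.0437 to 0.990 and 0.0238 to 0.976). In the fit of 6 libraries the activator gene Psme4 and the inhibitor gene Psmf1 did not pass. Psme2b fell from 6.08 to 2.40 TPM, but it is a near copy of Psme2 and its reads are uncertain. Of 7 further proteins that belong to or bind the regulatory particle 3 rose and 0 fell (0 lower at an unadjusted p under 0.05, and 0 by limma-voom). These were Usp14 and Uchl5, deubiquitinases docked on the base, and the ubiquitin ligase gene Ube3c, at 1.22-fold, 1.21-fold and 1.22-fold. Uchl5 lost its call without M0 replicate 1 (adjusted p 0.00267 to 0.0533), and Ube3c without M0 replicate 1 or 2 or M2 replicate 1 or 2 (5.64e-04 to 0.0681). Adrm1, the ubiquitin receptor that holds Uchl5, and Sem1, a small lid subunit, did not pass (ratios of M2 over M0 1.05 and 0.91), nor did Txnl1 and Ecpas. Sem1 without M2 replicate 3 passed as lower (-0.25, adjusted p = 0.00992, in a range of 0.00992 to 0.672) and Ecpas as higher (0.26, adjusted p = 0.0207, in a range of 7.99e-04 to 0.453).

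Of 7 tested regulators of proteasome genes 4 fell and 1 rose, where 23.7% and 20.1% of all tested genes did. Nfe2l1, which encodes NRF1, read 84.9, 95.1 and 90.8 TPM in the M0 libraries against 63.1, 65.6 and 57.6 TPM in M2 (log2 fold change -0.53, SE 0.068, adjusted p = 3.77e-04 by limma). Nfe2l2, the gene of the related factor NRF2, read 104, 107 and 106 TPM in the M0 libraries against 66.4, 66.2 and 64.9 TPM in M2 (-0.68, SE 0.049, adjusted p = 1.98e-05). Neither gene overlapped between the groups, and both passed under each of 17 alternatives. The products of the small MAF genes pair with these factors on DNA. Of these genes, Maff fell from 6.88 to 2.08 TPM and Mafk to 0.74 times its M0 mean. Mafg did not pass in the limma fit of log2(TPM + 1) (ratio 1.09), but passed as higher in 5 of 17 alternatives (adjusted p 0.0115 to 0.283). These were median-ratio scaling, limma-voom, the authors' values and leaving out M2 replicate 3 (adjusted p = 0.0233), also with the length trend removed. NRF1 is processed by the enzymes of Ngly1 and Ddi2. Ngly1 rose from 8.79 to 11.8 TPM (not called without M0 replicate 3, adjusted p 0.00277 to 0.0631), and Ddi2 stood at 39.2 ± 1.43 TPM (M0) against 38.5 ± 7.56 TPM (M2) (SD, n = 3 each). Nfe2l3 was below the filter in every library. These are transcript levels, and NRF1 and NRF2 are known to be regulated largely as proteins.

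**Figure D5:**
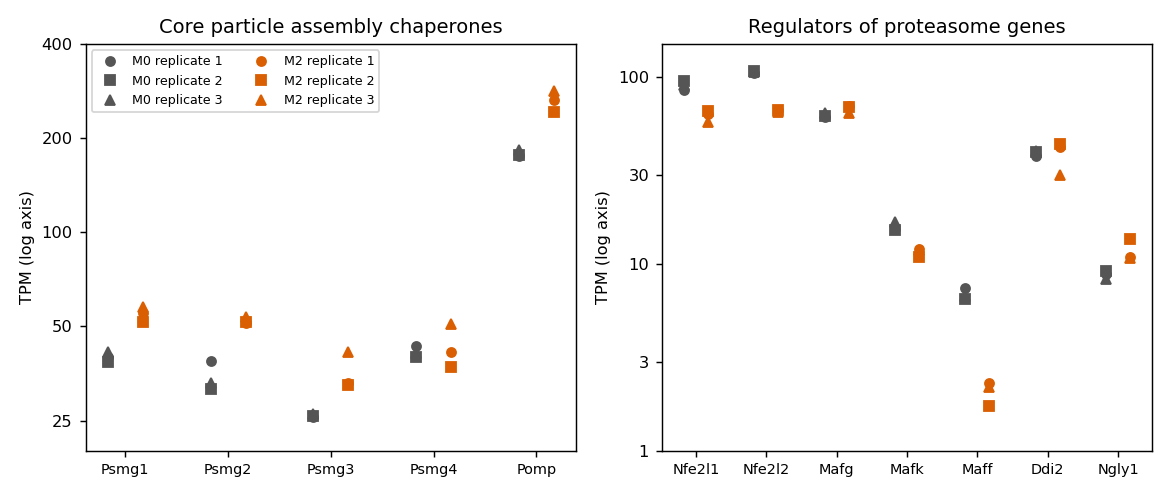
TPM on log axes in each library (grey M0, orange M2, 1 symbol per replicate number) for 5 assembly chaperones of the core particle (left) and 7 regulators of proteasome genes (right). Psmg1, Psmg2, Psmg3 and Pomp are higher in all 3 M2 libraries, and Nfe2l1, Nfe2l2, Mafk and Maff are lower in all 3.

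Transcripts of a ubiquitin gene and the segregase gene were also compared, which do not measure the supply of substrates. Ubb, which encodes a chain of ubiquitin units, read 157, 171 and 171 TPM in the M0 libraries against 116, 125 and 140.4 TPM in M2. All M2 libraries were lower, and Ubb fell (log2 fold change -0.38, adjusted p = 0.00359 by limma) and passed under each of 17 alternatives. Ubiquitin units are near-identical between genes, so its reads may be shared with other genes. Vcp, the segregase that pulls proteins out of complexes, stood at 79.8 ± 4.89 TPM (M0) against 74.9 ± 4.29 TPM (M2) (SD, n = 3 each), and did not pass (adjusted p = 0.302).

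NRF1 and NRF2 bind antioxidant response elements, and the promoters of the members were searched for the core of that element. The motif was TGACNNNGC on either strand, in RefSeq windows from 250 bases before to 50 bases after a gene's start (GRCm38.p6, which is mm10). Of the 37 members 30 matched a window by symbol, and 5 of these 30 (16.7%) held the motif, against 17.01% of 8737 tested genes with a window and 14.0% of all 27025 genes. By window the shares were 15.6% of 32 and 14.4% of 11075. The members' share lay near the background. The 5 were Psmb5, Psmb6, Psmc6, Psmd12 and Psmd9. Psmc6 and Psmd12 were among the genes that rose, and the other 3 were not called. The 4 with the lowest adjusted p are shown 5′ to 3′ on the gene's strand, all from before the start, with the motif in capitals.
Psmc6: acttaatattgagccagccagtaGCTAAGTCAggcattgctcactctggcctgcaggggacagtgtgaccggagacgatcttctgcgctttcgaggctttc
Psmd12: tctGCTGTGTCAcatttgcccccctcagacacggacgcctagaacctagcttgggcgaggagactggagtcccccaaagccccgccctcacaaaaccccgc
Psmb6: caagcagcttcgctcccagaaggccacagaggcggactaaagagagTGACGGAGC
Psmb5: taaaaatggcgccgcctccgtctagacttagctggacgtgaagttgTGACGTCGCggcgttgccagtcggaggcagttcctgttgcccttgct
The stretches are chr14:45329574-45329674 (plus strand), chr11:107479278-107479378 (plus strand), chr11:70525302-70525356 (plus strand) and chr14:54617996-54618088 (minus strand). The centre of the motif lay 223, 243, 5 and 43 bases before the start in that order. In Psmb6 and Psmb5 it lay close to the start and reads in the direction of the gene, and in Psmc6 and Psmd12 it lay far upstream and is shown as its reverse complement. A match describes the letters only, and none in a window says nothing about the factor.

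Several members share exon sequence with another gene in the GENCODE M21 annotation of GRCm38, and the library kit named in the labels does not mark strand. Reads of such a pair cannot be told apart where they overlap. On the opposite strand, the longest overlap was that of Psmd9 with Gm26745 (1849 bases), so the level of Psmd9 is uncertain. Psmd13 overlaps Sirt3 on the opposite strand by 329 bases, Psmb7 overlaps Nek6 by 253, Psma4 overlaps AY074887 by 114 and Psmc3ip overlaps Mlx by 385. Psmd1 overlaps Htr2b by 252, Psmc3 overlaps Slc39a13 by 147, Psma5 overlaps 1700010K24Rik by 60 and Psmd3 overlaps Gm12356 by 17. Psmd1 shares 154 bases with Gm21972 on the same strand. The Psmb5 model also holds Mir686 on the same strand (109 shared bases), which the TPM table lists at 188 ± 13.9 TPM in M0 and 172 ± 12.2 in M2 (SD, n = 3 each), above Psmb5 itself. How reads were divided between them is not stated, so the low level of Psmb5 and its share against Psmb8 are uncertain. Mlx stood at 46.2 and 43.2 TPM, near Psmc3ip. Nek6 went from 25.2 to 40.5 TPM (adjusted p = 6.24e-05 by limma) and AY074887 from 26.3 to 31.7 TPM (adjusted p = 0.0158), while Sirt3 stood at 3.98 and 3.90 TPM. Their part in the rises of Psmb7 and Psma4 was not tested.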

How the data were processed

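Groups and replicate numbers came from the sample titles. The submitters' processing notes name the build mm10, DESeq2, HOMER 4.11.1, STAR 2.7.5a and bcl2fastq, without order. How reads with several matches were counted, and with which annotation, is not stated in those notes.

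The TPM values, with the length of 1 transcript model per gene, are as deposited by the authors. Their second deposited table holds values per library, read from their range as log2 values, and the authors' log2 fold change and p-values. The sign of that fold change matched the difference of its own library values, M2 minus M0, for 850 of 850 genes differing by over 0.5. Reads were recovered from TPM and length, since their product has a fixed step in each library (100.0% of tested values lay within 0.1 read of a whole number).

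Genes with at least 1 TPM in at least 3 libraries (11202) were fitted by group with limma 3.58.1 in R 4.3.3 on log2(TPM + 1), the variance following the mean, and called at an adjusted p under 0.05. This scale understates changes of low genes, such as Arg1 (log2 fold change 3.80, ratio of means 87.88). The design had allowed for counts, which these tables do not hold as deposited. As a check of the code, the fit was run on simulated data without a library that stands apart by length. That run says little about the small changes reported here. Python 3.11.15, pandas 2.3.3 and matplotlib 3.10.9 prepared tables and plots.

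Named were all members, with values per library for the catalytic genes and for the highest and lowest fold change per role. From the other lists, called genes (up to 3 per list by lowest adjusted p) and a few genes set by name were given values. Further genes were named to complete a count, after their values were seen. Some genes of the lists, and the counts of 2 lists that hold them, are not reported here. Members and lists were chosen with earlier results of these data known. The 17 alternatives were another pseudocount, filter, scaling or variance model, limma-voom, the authors' values, removal of a length trend, a replicate block, each library left out, and, added after the data were seen, removal of the length trend without M2 replicate 3.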

Additional observations from a re-analysis of the deposited data

How the results depend on the processing

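The genes were refitted under 17 alternatives, on 11202 genes except with no filter (19655), a filter of 5 TPM (9018) and the authors' values (10685). Over the 595 values of single members, 535 kept their side of the threshold, 43 lost a call and 17 gained one. No called member changed sign, and 9 members that had not passed did so under at least 1 alternative, 27 times in all. Of 13 called members 3 (Psma4, Psmd6 and Psmd7) passed under all alternatives. Leaving out each library in turn, 2 to 7 core genes rose and 0 to 2 fell, and 2 to 5 regulatory genes rose and 0 to 1 fell. Without M0 replicate 2, 2 core genes rose, and without M0 replicate 3, 3 did. For the regulatory particle 2 rose without M0 replicate 3, and 3 without M0 replicate 1, M0 replicate 2 or M2 replicate 2. Fits of 5 libraries have fewer samples. The falls moved with the settings. With the length trend removed 2 core and 2 regulatory genes fell, with the length trend removed and without M2 replicate 3 (added after the data were seen) 2 core genes fell, and with median-ratio scaling, limma-voom and the authors' values 0 regulatory genes fell. Without the variance trend 3 regulatory genes rose. The cause of these shifts was not tested. With the replicate number as a block, 6 core genes rose and 1 fell, and 4 regulatory genes rose and 1 fell. With the replicate block and the length trend removed 2 core genes fell. Deviations of libraries that share a number correlated at -0.033, 0.21 and 0.029 for numbers 1, 2 and 3, so the numbers were not taken as pairs. Reads per library numbered 911 or more for each of the 31 subunits and 432 or more for the other tested members. Psma8 and Psmb11 were below the filter. How far depth limits the calls was not tested.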
